A study of Mus musculus with 8 samples.

Results

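The 10 genes described here encode peroxiredoxins (Prdx1, Prdx2, Prdx3, Prdx5 and Prdx6), the thioredoxin pair (Txn1 and Txnrd1), glutathione peroxidases (Gpx1 and Gpx4) and the modifier subunit of the enzyme that starts glutathione synthesis (Gclm). They were chosen by symbol, and each of the 10 matched 1 row among the 57180 genes of the deposited table. Their RNA was measured in Treg cells (regulatory T cells, which hold back other immune cells), taken from different mice by flow cytometric sorting. The 8 libraries fall into 2 groups by their titles, 5 labelled chimera WT and 3 labelled chimera KO. The labels name neither the deleted gene nor a strain, age, treatment or chimera host, so the KO label could not be checked against a target gene. Nor do they say which animal gave which library, and the p-values therefore reflect only library-to-library spread, which may be technical.

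Peroxiredoxins remove hydrogen peroxide with a reactive cysteine, and most of them are reset by thioredoxin, which thioredoxin reductase in turn restores with NADPH. Glutathione peroxidases use glutathione for the same purpose, and Gpx4 reduces lipid peroxides in membranes, which keeps cells from ferroptosis. In T cells these systems buffer the peroxide made during activation, and many of their genes are induced by the transcription factor NRF2 through antioxidant response elements.

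Txnrd1, Gpx1 and Gpx4 carry selenocysteine at their active sites, an amino acid encoded by a stop codon, TGA, that is read through. In GENCODE M21 (GRCm38) this codon is annotated in 3 of the 10 genes and in 24 of 21992 protein-coding genes (0.109%). The windows below come from the coding exons of those 3 genes, 5′ to 3′, with the selenocysteine codon in capitals. It is codon 612 of 613 in Txnrd1 (chr10:82896037-82896039, plus strand), codon 47 of 201 in Gpx1 (chr9:108339451-108339453, plus strand) and codon 129 of 253 in the longest annotated form of Gpx4 (chr10:80054737-80054739, plus strand), the final stop codon not being counted.
Txnrd1: cagtctggctgcTGAggt
Gpx1: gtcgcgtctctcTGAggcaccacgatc
Gpx4: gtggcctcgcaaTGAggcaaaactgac

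The promoters were searched for TGACNNNGC, the core of the antioxidant response element, on both strands of the 300 bases from 250 before to 50 after each start site in RefSeq (GRCm38.p6). A promoter was given for 9 of the 10 genes, Prdx6 being the other, and 3 of these 9 held a match, against 13.99% of 27025 genes. The matches lay on the opposite strand, at positions -133 to -125 in Prdx1, -92 to -84 in 1 of the 3 promoters of Txnrd1 and -134 to -126 in Gclm, counted from the start site. Only the promoters that held a match are shown. Capitals mark the match, which is a description of letters and not a measured binding site. The promoters shown are Prdx1 at chr4:116685349-116685648, Txnrd1 at chr10:82858956-82859255 and Gclm at chr3:122245307-122245606, all on the plus strand.
Prdx1: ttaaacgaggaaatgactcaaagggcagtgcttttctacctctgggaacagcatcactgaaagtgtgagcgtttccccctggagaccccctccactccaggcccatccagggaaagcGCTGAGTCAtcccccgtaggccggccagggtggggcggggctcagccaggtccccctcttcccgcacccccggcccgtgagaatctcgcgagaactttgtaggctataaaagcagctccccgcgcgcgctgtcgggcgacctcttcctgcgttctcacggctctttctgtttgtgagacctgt
Txnrd1: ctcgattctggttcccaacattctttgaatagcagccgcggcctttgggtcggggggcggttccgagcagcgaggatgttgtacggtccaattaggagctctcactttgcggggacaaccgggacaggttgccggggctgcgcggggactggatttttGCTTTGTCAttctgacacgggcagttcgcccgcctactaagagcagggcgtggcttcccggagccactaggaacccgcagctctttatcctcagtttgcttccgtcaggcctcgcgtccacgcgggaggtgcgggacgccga
Gclm: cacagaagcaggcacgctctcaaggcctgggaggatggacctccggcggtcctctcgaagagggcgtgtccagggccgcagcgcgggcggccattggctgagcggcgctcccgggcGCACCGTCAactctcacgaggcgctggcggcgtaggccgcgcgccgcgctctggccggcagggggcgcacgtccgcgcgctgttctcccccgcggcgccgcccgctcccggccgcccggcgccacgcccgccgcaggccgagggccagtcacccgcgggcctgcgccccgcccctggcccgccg

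Library totals ran from 4.31 to 17.98 M (mega, estimated counts), and 8201 to 14245 genes had at least 10 counts. WT-labelled replicates 4 and 5 stood apart from the other libraries. Genes of at least 3000 bases held 20.6% of protein-coding counts in WT-labelled replicate 4 and 32.5% in replicate 5, against 43.1 to 47.6% in the other 6 libraries. Replicate 4 also had the highest summed level of the 10 B cell markers (6255 normalised CPM, against 133 to 612 elsewhere) and of the 11 NK and CD8 T markers (5675, against 4.49 to 223), with 1 of the 10 and 6 of the 11 at 0 there. Replicate 5 had the highest sum of the 12 red cell markers (9651, against 0.14 to 22.9), most of it from globin genes, with 7 of the 12 at 10 counts or more and 5 at 0. Foxp3, which defines Treg cells, was above 0 in all 8 libraries, with its lowest levels in WT-labelled replicates 5 (1.26) and 4 (3.09) and in the second KO-labelled replicate (2.69). The summed level of the 8 Treg markers ran from 4237 to 8691 in the WT-labelled libraries and from 902 to 3015 in the KO-labelled ones. The sum includes Trac and Cd3e, which are not limited to Treg cells. In WT-labelled replicate 4, which had the highest sum, Trac (4373), Cd3e (1386), Tnfrsf18 (1356) and Ctla4 (934) were at their highest. Ikzf2 (81.1) and Cd4 (86.3) were at their lowest there. Protein-coding genes held 81.9 to 90.3% of counts in the WT-labelled libraries and 65.05 to 78.4% in the KO-labelled ones. The part of these differences in the results below was not tested. The TMM scaling factors were 0.40 and 0.69 in WT-labelled replicates 4 and 5 and 1.08 to 1.49 in the other libraries, and a factor under 1 raises a library's normalised CPM. Normalised CPM means CPM (counts relative to the library total) after this scaling and is used for single genes between libraries; levels of different genes are compared in TPM, which divides by gene length.

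Per length, Prdx1 was the most abundant of the 10 transcripts, with 458 ± 281 TPM (SD, n = 8), and ranked first in 6 of 8 libraries. Gpx4 exceeded it in WT-labelled replicate 3, and Txn1 and Gpx4 did in KO-labelled replicate 3. Txn1 (275 ± 103), Gpx4 (255 ± 172) and Gpx1 (223 ± 136) followed, and these 3 could not be ordered: Txn1 exceeded Gpx4 in 4 of 8 libraries and Gpx4 exceeded Gpx1 in 4. Prdx5 had 169 ± 132 TPM, Prdx2 117 ± 54.5, Prdx6 60.1 ± 58.5 and Prdx3 54.3 ± 62.4. Prdx5 exceeded Prdx2 in 6 of 8 libraries and Prdx2 exceeded Prdx6 in 7, while Prdx6 and Prdx3 differed by less than their SD. Over all libraries Gclm (33.2 ± 30.3) and Txnrd1 (12.3 ± 10.7) were lowest, but in the KO-labelled libraries alone Gclm (61.5 ± 30.2, n = 3) had a higher mean than Prdx3 (50.6 ± 43.8) and Prdx6 (26.3 ± 26.2). Gclm exceeded Txnrd1 in 7 of 8 libraries, whereas Prdx3 exceeded Gclm in 3 of 8, so those neighbours could not be ordered.

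In the comparison of groups, 8 of the 10 genes had negative log2 changes (lower in KO-labelled libraries), and 2, Txnrd1 and Gclm, had positive ones. By edgeR (quasi-likelihood, Benjamini-Hochberg adjustment at 0.05) none of the 10 was called, nor were any of the 14755 tested genes (0%); all 10 passed the filter on low counts. At an unadjusted p under 0.05, 3 were lower (Prdx1, Prdx2 and Gpx1, against 6.43% of all tested genes) and 0 were higher (against 7.96%). With TMM factors of 1 only Prdx1 remained under 0.05, and without WT-labelled replicates 4 and 5 none of the 10 did (0 genes, edgeR). DESeq2 at an adjusted p of 0.05 called 4 lower (Prdx1, Prdx2, Prdx6 and Gpx1, against 10% of tested genes) and 0 higher (against 6.4%). The KO-labelled libraries lay wholly below the WT-labelled ones for 1 gene, Prdx2 (background 4.49%), and wholly above for 1 gene, Gclm (background 13.2%). Their median log2 change was -1.998, against -0.42 over all tested genes and -0.86 over protein-coding ones, of which 33.5% had positive changes. With TMM factors of 1 the median of the 10 genes was -0.66 and that of all tested genes 0.21. Without WT-labelled replicates 4 and 5 the median of the 10 genes was -0.58 and that of protein-coding genes -0.48. In bulk RNA, fewer cells of a type and less RNA per cell cannot be told apart.

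**Figure D1:**
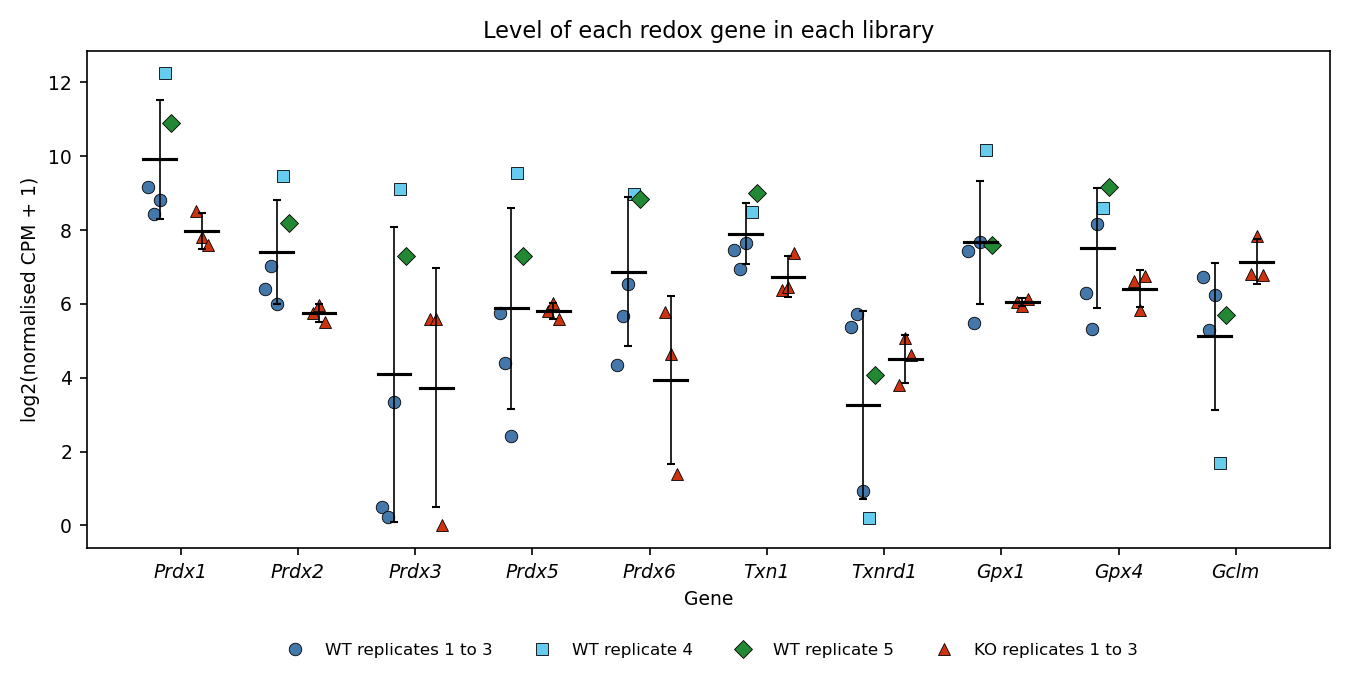
Level of the 10 genes in each library, as log2(normalised CPM + 1); symbols are single libraries, bars the mean of the plotted values and whiskers their SD (n = 5 WT-labelled, n = 3 KO-labelled). WT-labelled replicates 4 and 5 are the top libraries for 7 genes, while Gclm is highest in the 3 KO-labelled libraries and lowest in WT-labelled replicate 4.

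Prdx1 and Prdx2 are typical peroxiredoxins of the cytosol, which form a disulfide between their subunits when they react with peroxide. Prdx1 (ENSMUSG00000028691, chr4:116685544-116700822) had 574, 348, 451, 4847 and 1894 normalised CPM in WT-labelled replicates 1 to 5, and 364, 224 and 192 in KO-labelled replicates 1 to 3. WT-labelled replicates 4 and 5 stood far above the rest, and KO-labelled replicate 1 lay just above WT-labelled replicate 2, so the groups overlapped. The log2 change was -2.64 (SE 0.98, 95% interval -4.83 to -0.45, adjusted p = 0.325 by edgeR). Without WT-labelled replicates 4 and 5 it was -0.80 (SE 0.38, adjusted p = 0.365 by edgeR).

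Prdx2 (ENSMUSG00000005161, chr8:84969587-84974834), a peroxiredoxin especially abundant in red cells, had 83.6, 129, 62.6, 700.1 and 289.7 normalised CPM in WT-labelled replicates 1 to 5, against 53.1, 62.1 and 44.4 in the KO-labelled libraries. The groups did not overlap, by a margin of less than 1 normalised CPM between KO-labelled replicate 2 and WT-labelled replicate 3. On unscaled CPM they did overlap, with 71.6, 90.9 and 57.5 in KO-labelled replicates 1 to 3 against 66.7 in WT-labelled replicate 3. edgeR gave a log2 change of -2.25 (SE 0.94, adjusted p = 0.328 by edgeR), and -0.76 (SE 0.53) without WT-labelled replicates 4 and 5. Its highest value was in WT-labelled replicate 4, where 11 of 12 red cell markers were at 0. Replicate 5, where the red cell markers were highest, had the next highest Prdx2 value. What red cells contribute to it was not tested. Exons of Prdx2 share 173 bases with Junb and 177 with Rnaseh2a on the other strand, and as strand was not recorded by the kit, those reads could belong to either gene.

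Prdx3, the mitochondrial peroxiredoxin, was detected in a patchy way. Its counts were 5, 2, 109, 3916 and 1124 in WT-labelled replicates 1 to 5 and 544, 316 and 0 in KO-labelled replicates 1 to 3. The count of 0 allows up to 3 counts, or 0.695 CPM, and covers counting error only. The groups overlapped fully, and low and high libraries occurred in both. The fitted log2 change came to -2.18 (SE 2.38, adjusted p = 0.625 by edgeR), and its sign turned to 3.28 (SE 2.28) without WT-labelled replicates 4 and 5.

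Prdx5 forms its disulfide within 1 subunit and works in mitochondria, peroxisomes and the cytosol. It had 52.8, 19.9, 4.37, 743 and 157 normalised CPM in WT-labelled replicates 1 to 5, against 54.8, 64.4 and 47.1 in the KO-labelled libraries. The KO-labelled values were close together and inside the wide WT-labelled range. Its log2 change stood at -1.82 (SE 1.41, adjusted p = 0.504 by edgeR), -0.08 without WT-labelled replicate 4 alone, and 1.16 (SE 0.92) without replicates 4 and 5. Exons of Prdx5 share 409 bases with Trmt112 on the other strand.

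Prdx6 works with a single cysteine and glutathione in place of thioredoxin. Its levels were 19.5, 49.95, 92.3, 498 and 459 normalised CPM in WT-labelled replicates 1 to 5, against 53.7, 24.2 and 1.61 in the KO-labelled libraries. KO-labelled replicate 3, with 9 counts, was the lowest of the 8 libraries, and the other KO-labelled libraries lay among WT-labelled replicates 1 to 3. The log2 change was -3.07 (SE 1.42, adjusted p = 0.352 by edgeR) and -1.04 (SE 1.18) without WT-labelled replicates 4 and 5. Reads could also have been split with the related copy Prdx6b, which had 2 to 13 counts in 7 libraries and 112 in KO-labelled replicate 3.

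The make-up of these 5 peroxiredoxin transcripts does not depend on library scaling, but it does depend on which genes are summed. Prdx4 was left out of the sum. It had 3527 counts in WT-labelled replicate 5 and 370, 8 and 2 in KO-labelled replicates 1 to 3. Shares with Prdx4 included were not worked out, so those below hold for the 5 genes only. Prdx1 held 65.6, 54.1, 68.6, 51.3 and 54.5% of the summed TPM of the 5 peroxiredoxins in WT-labelled replicates 1 to 5, against 49.7, 37.0 and 48.0% in the KO-labelled libraries. Its share was thus lower in every KO-labelled library than in every WT-labelled one, with means of 58.8 ± 7.73% and 44.9 ± 6.89% (SD, n = 5 and n = 3); no test was made of a share within the gene list. Prdx5 held 18.3, 9.41, 2.01, 23.9 and 13.7% in WT-labelled replicates 1 to 5, against 22.7, 32.3 and 35.7% in the KO-labelled libraries, overlapping in 1 library of each group. Prdx3 ranged from 0 to 12.1% with no separation of the groups.

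**Figure D2:**
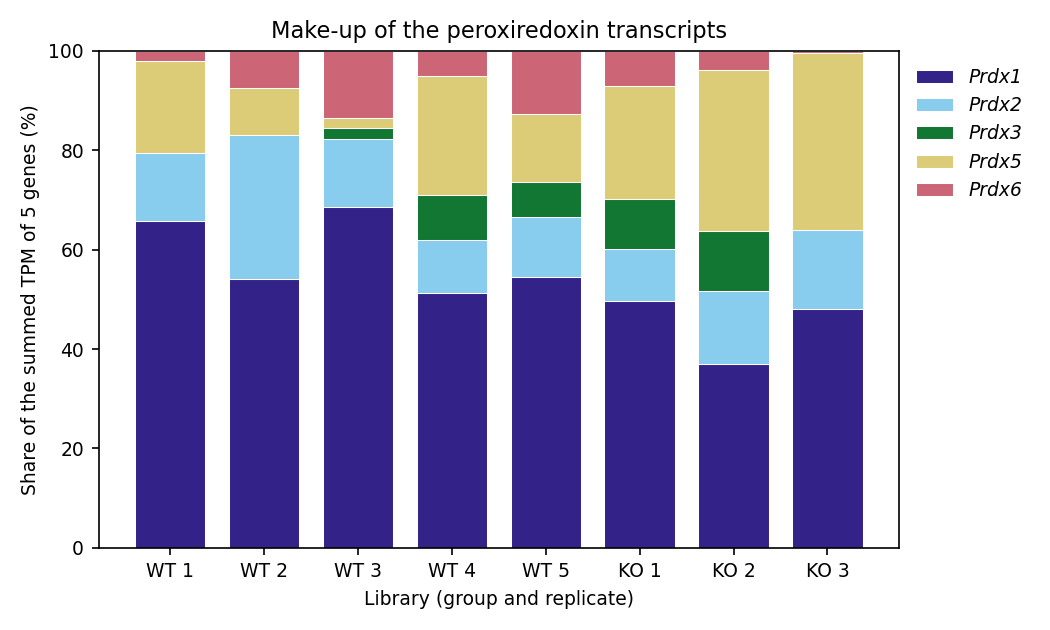
Share of each peroxiredoxin in the summed TPM of the 5 genes, in percent, for each library. Prdx4 is not part of the sum. Prdx1 takes 51.3 to 68.6% in WT-labelled replicates 1 to 5, against 37.0 to 49.7% in the KO-labelled libraries, and Prdx5 reaches 35.7% in KO-labelled replicate 3.

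Thioredoxin 1 passes electrons to peroxiredoxins and to ribonucleotide reductase. Txn1 (ENSMUSG00000028367, chr4:57943373-57956411) had 174, 121, 199, 359 and 509.6 normalised CPM in WT-labelled replicates 1 to 5, against 82.4, 86.6 and 166 in the KO-labelled libraries. It was among the steadiest of the 10 genes between libraries, and only KO-labelled replicate 3 reached into the WT-labelled range. edgeR gave a log2 change of -1.29 (SE 0.68, adjusted p = 0.380 by edgeR) and -0.54 (SE 0.48) without WT-labelled replicates 4 and 5.

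Txnrd1, the cytosolic reductase that restores thioredoxin 1, behaved differently. Its counts ran 485, 594, 11, 1 and 114 in WT-labelled replicates 1 to 5, against 148, 220 and 131 in the KO-labelled libraries. It was nearly absent in WT-labelled replicates 3 and 4, while Txn1 in those libraries had 2364 and 2558 counts. The fitted log2 change came to 0.09 (SE 1.52, 95% interval -3.30 to 3.47, adjusted p = 0.979 by edgeR), an interval that leaves changes of several-fold in either direction undetectable, and the sign turned in 7 of 19 alternative settings. The log2 ratio of Txnrd1 to Txn1 counts was -5.26 ± 3.79 in WT-labelled replicates 1 to 5, against -2.29 ± 0.78 in the KO-labelled libraries (SD, n = 5 and n = 3), and the groups overlapped (exact two-sided permutation p = 0.321, 0.464 adjusted over 3 ratios).

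Gpx1 is the general glutathione peroxidase of the cytosol and mitochondria. Gpx1 (ENSMUSG00000063856, chr9:108338903-108340343) had 170.3, 43.4, 205, 1140.2 and 193 normalised CPM in WT-labelled replicates 1 to 5, against 65.4, 60.9 and 69.8 in the KO-labelled libraries. The KO-labelled libraries lay within 10 normalised CPM of each other and below 4 of the 5 WT-labelled ones, WT-labelled replicate 2 being lower still. Its log2 change stood at -2.42 (SE 1.02, adjusted p = 0.331 by edgeR) and -1.07 (SE 0.64) without WT-labelled replicates 4 and 5.

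Gpx4 had 76.8, 39.2, 287, 389 and 575 normalised CPM in WT-labelled replicates 1 to 5, against 98.2, 56.4 and 107 in the KO-labelled libraries. All 3 KO-labelled values lay inside the WT-labelled range. The log2 change was -1.65 (SE 0.92, adjusted p = 0.390 by edgeR) and -0.62 (SE 0.79) without WT-labelled replicates 4 and 5. The balance of the 2 peroxidases varied between WT-labelled libraries from -1.55 to 1.58 (log2 ratio of Gpx4 to Gpx1 counts), a range that held the KO-labelled values of 0.59, -0.11 and 0.62 (exact two-sided permutation p = 0.429, adjusted p = 0.464).

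Gclm, the modifier subunit that makes glutamate-cysteine ligase more active, had higher values in the KO-labelled libraries. It was the 1 gene of the 10 that lay wholly above the WT-labelled ones in normalised CPM, as 13.2% of all tested genes did. Gclm (ENSMUSG00000028124, chr3:122245557-122270732) had 105, 38.0, 74.2, 2.25 and 50.6 normalised CPM in WT-labelled replicates 1 to 5, against 112, 229 and 109 in the KO-labelled libraries. All 3 KO-labelled values exceeded all 5 WT-labelled ones, on unscaled CPM as well (141 to 335 against 0.871 to 119), though WT-labelled replicate 1 was close to KO-labelled replicates 1 and 3. edgeR gave a log2 change of 1.47 (SE 0.98, 95% interval -0.71 to 3.65, adjusted p = 0.448 by edgeR), and it was positive in all 19 alternative settings, from 1.01 to 1.93. Without WT-labelled replicate 4, the lowest library, it was 1.16. The antisense gene Gm17494 shares 296 exon bases with Gclm, and without strand the reads of that stretch cannot be told apart. Gm17494 had 1367 to 3018 raw counts in WT-labelled replicates 1 to 5 and 654 to 1329 in the KO-labelled libraries. Library totals were 10.54 to 17.98 M and 4.31 to 8.48 M in these groups, so the raw counts do not compare them. The pseudogene Gm6061, on the same strand, shares 244 exon bases with Gclm. It had 41, 2, 28, 0 and 0 counts in WT-labelled replicates 1 to 5 and 0, 0 and 5 in KO-labelled replicates 1 to 3. What either gene contributes to the values of Gclm was not tested.

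Gclm and Txnrd1 are also the longest of the 10 genes, at 5589 and 3622 bases in the deposited table, against 755 to 2387 for the other 8, and long genes held a smaller share of counts in WT-labelled replicates 4 and 5. With the dependence on gene length taken out of each library, a fit added after the data were seen, Gclm had 1.60 (SE 0.90), Txnrd1 0.37 (SE 1.44), Prdx1 -3.16 (SE 1.16) and Prdx5 -0.45 (SE 1.11). The same 8 genes kept negative signs. What B, NK and red cell markers contribute to these values was not tested.

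**Figure D3:**
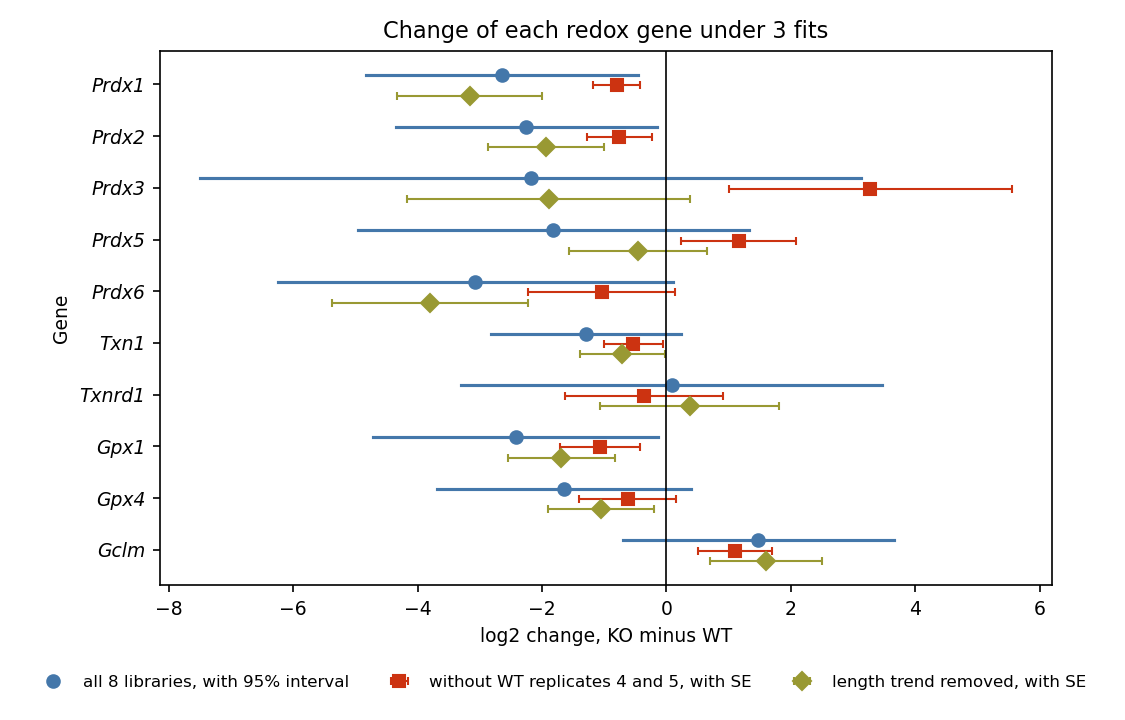
Log2 change, KO-labelled minus WT-labelled, of each gene with all 8 libraries (95% interval), without WT-labelled replicates 4 and 5 (SE) and with the length trend removed (SE). Leaving out the 2 libraries turns Prdx3 to 3.28 and Prdx5 to 1.16 and moves the other negative changes toward 0. Of the positive changes, Gclm goes from 1.47 to 1.10 and Txnrd1 turns from 0.09 to -0.36.

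Other redox genes were taken from a list of 83 in 11 roles, of which 57 passed the count filter. Of these, 42 had negative and 15 positive log2 changes, with a median of -1.53, against -0.42 over all tested genes and -0.86 over protein-coding ones. Without WT-labelled replicate 4 the median was -0.92, and without replicates 4 and 5 it was -0.17, with 32 negative and 24 positive changes. By edgeR 0 passed an adjusted p of 0.05, with 9 lower and 1 higher before adjustment (p under 0.05), where the background was 6.43% and 7.96%. DESeq2 called 12 lower and 2 higher, against a background of 10% and 6.4%. The split of signs depended on the scaling: 35 were negative with TMM factors of 1, and 28 negative against 29 positive with limma-voom. Groups did not overlap for 7 genes lower and 2 higher in the KO-labelled libraries, against a background of 4.49% and 13.2%. The thioredoxin system had 6 of 6 negative changes, with Txnip, which binds and restrains thioredoxin, at 753 ± 1003 normalised CPM in WT-labelled replicates 1 to 5, against 100.2 ± 27.5 in the KO-labelled libraries. Superoxide dismutases and catalase had 4 of 4 negative (mitochondrial Sod2, 204 ± 256 and 38.9 ± 24.0), glutaredoxins 4 of 4 (Glrx3, 138 ± 132 and 37.2 ± 13.7) and glutathione transferases 5 of 6 (Mgst2, 412 ± 223 and 88.4 ± 49.9). These are means ± SD over n = 5 and n = 3, and none of these genes passed the edgeR test. Without WT-labelled replicates 4 and 5 the thioredoxin system still had 6 of 6 negative, but superoxide dismutases and catalase had 3 of 4, glutaredoxins 2 of 4 and transferases 3 of 6.

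Glutathione synthesis and supply was the role with the most positive changes, 5 of 7. Slc7a11, the cystine importer, had 20.5, 15.9, 19.4, 8.01 and 12.0 normalised CPM in WT-labelled replicates 1 to 5, against 32.1, 51.9 and 67.1 in the KO-labelled libraries, without overlap (log2 change 1.73, SE 0.86, adjusted p = 0.365 by edgeR and 0.0274 by DESeq2). Its partner chain Slc3a2, the most abundant of this role, went the other way, at 89.8 ± 11.6 against 47.2 ± 15.6 (SD, n = 5 and n = 3), also without overlap in normalised CPM (log2 change -0.93, SE 0.70, adjusted p = 0.490 by edgeR and 0.0378 by DESeq2). That change depended on scaling. With TMM factors of 1 Slc3a2 had -0.31 (unadjusted p = 0.705 by edgeR) and Slc7a11 2.25 (unadjusted p = 0.050 by edgeR). Overlap of the groups on unscaled CPM was not examined for these 2 genes. Ggct, which splits gamma-glutamyl dipeptides, was near the floor, at 0 to 1.49 in WT-labelled replicates 1 to 5, against 2.86 to 10.85 in the KO-labelled libraries. Gclc, the catalytic subunit that Gclm modifies, did not share its pattern: it ranged from 0 to 110 in WT-labelled replicates 1 to 5, against from 16.5 to 42.2 in the KO-labelled libraries (log2 change 0.08, SE 1.86). Slc7a11, Ggct and Gclc were chosen once their values were known.

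NADPH supply had 3 positive and 5 negative changes, with Me2, a mitochondrial malic enzyme, at 192 ± 227 in WT-labelled replicates 1 to 5, against 50.7 ± 35.1 in the KO-labelled libraries (SD, n = 5 and n = 3). NRF2 and its targets had 3 positive and 5 negative changes, with the ferritin light chain Ftl1 most abundant, at 388 to 5500 in WT-labelled replicates 1 to 5, against 159 to 472 in the KO-labelled libraries. Nfe2l2, which encodes NRF2 and was also named after its values were seen, varied from 0.173 in WT-labelled replicate 2 to 804 in replicate 4, a range that held the KO-labelled values of 35.95, 8.67 and 6.44. Selenoproteins and genes of their synthesis had 7 of 9 negative, with Selenok at 659 ± 603 against 121 ± 63.1 (SD, n = 5 and n = 3). Peroxiredoxin 4 and the sestrins had 3 of 3 negative (Sesn1, 232 ± 215 against 80.2 ± 43.5), and methionine sulfoxide reductases 1 of 2 (Msrb2, 0 to 334 against 0 to 33.8). Without WT-labelled replicates 4 and 5 the negative changes were 1 of 3 for peroxiredoxin 4 and the sestrins, 0 of 2 for methionine sulfoxide reductases, 7 of 9 for selenoproteins, 4 of 8 for NRF2 and its targets and 4 of 7 for NADPH supply, while glutathione synthesis and supply had 5 of 7 positive. The 4 other glutathione peroxidases listed were below the filter.

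**Figure D4:**
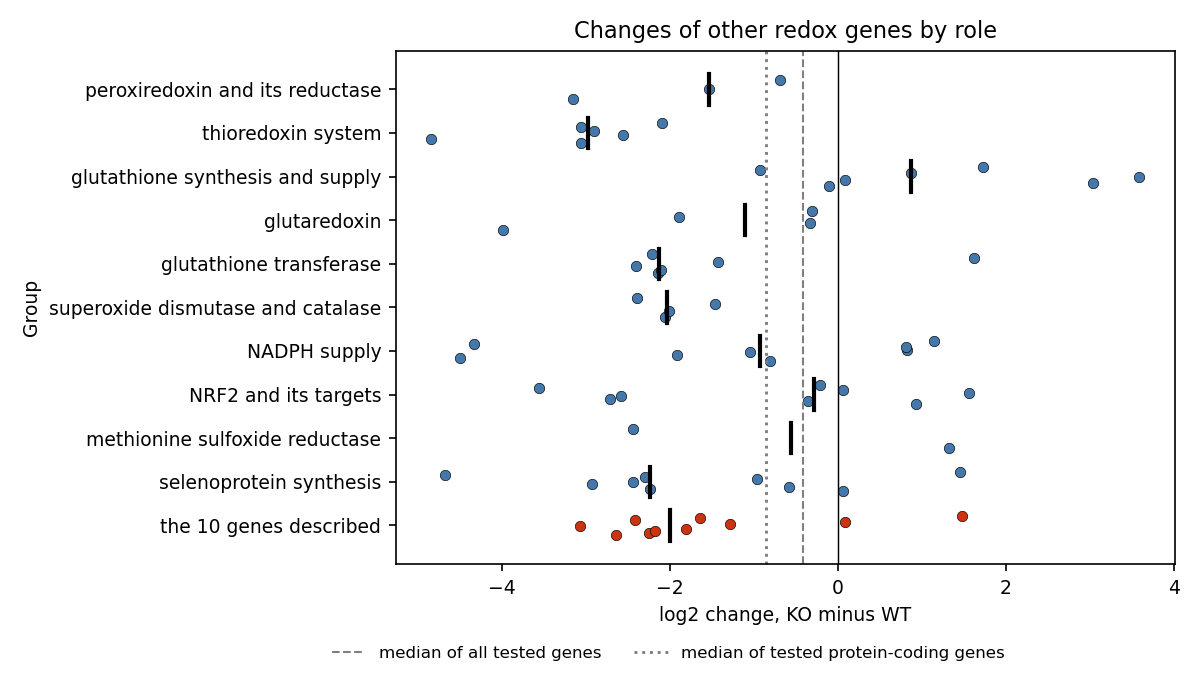
Log2 change, KO-labelled minus WT-labelled, of the 57 other tested redox genes by role (points, with the median as a bar) and of the 10 genes described; dashed and dotted lines mark the medians of all tested and of protein-coding genes, -0.42 and -0.86. Glutathione synthesis and supply has the highest median of the roles drawn, 0.87, and no gene passed the edgeR threshold.

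Among 10480 named protein-coding genes, those with the pattern most like Prdx1 over the 8 libraries were Atp5mc1, Cox8a and Arpc2 (Pearson r of log2 normalised CPM 0.99, 0.99 and 0.99). For Prdx2 they were Cycs, Npm1 and Rpl36al (0.99, 0.99 and 0.98), for Gpx1 Ypel3, Rps2 and Rab4b (0.98, 0.98 and 0.97) and for Gclm Zc3h7a, Acmsd and Or8c20 (0.99, 0.98 and 0.98). For Txnrd1 the closest gene was Cish, for Txn1 Bud31, for Gpx4 Atp6v0b, for Prdx3 Tmem165, for Prdx5 Snrpc and for Prdx6 Mfng, with r from 0.96 to 0.98. These are descriptions over libraries that share depth, length trend and the 2 libraries that stand apart. Without WT-labelled replicates 4 and 5 (n = 6) r of the named pairs ran from 0.80 (Gclm with Or8c20) to 0.98 (Prdx1 with Atp5mc1). It was 0.91 for Gclm with Zc3h7a, 0.88 for Prdx2 with Npm1 and 0.85 for Prdx2 with Rpl36al.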

How the data were processed

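The 8 RNA libraries of sorted mouse Treg cells were made with a low-input full-length kit (SMART-Seq V4) per the labels' protocols. The authors deposited expected counts (estimated counts per gene, not whole numbers and not scaled between libraries) with gene lengths. The mm10 build and the tools RSEM, HISAT2, StringTie, fastp and DESeq2 appear, without roles, per the submitters' processing notes. The annotation behind the counts is not stated in them. The authors' group columns were not used.

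Counts were rounded to whole numbers. edgeR 4.0.16 (R 4.3.3) was run on all 8 libraries with TMM factors after filterByExpr (minimum count 10). KO minus WT was tested two-sided by quasi-likelihood, with no covariate and Benjamini-Hochberg adjustment over 14755 genes; each SE is the size of the log2 change divided by root F. Ratios of counts plus 1 were compared by exact permutation (scipy 1.17.1) over 56 splits, whose smallest two-sided p is 0.0357. The edgeR procedure was also run on simulated data, but with a lower dispersion (spread between libraries) than the fitted common value of 1.67. That run therefore does not measure error or power in these libraries. Alternatives were TMM factors of 1, size factors of DESeq2, a filter at mean 5 CPM or none, limma-voom (limma 3.58.1), DESeq2 1.42.0, protein-coding genes alone, a replicate block, leaving out each library, the 2 libraries whose names start with FY or WT-labelled replicates 4 and 5, and, chosen after seeing the data, removing length trends. All 83 listed redox genes and 56 markers matched a symbol.

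Named were the 10 genes, the most abundant listed gene per role, and the 3 genes most alike each; the less close ones are left out for 6 genes. The genes and lists were chosen with earlier results of these data known. Platelet and myeloid marker sums were at most 14.6 and 293 normalised CPM.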

Additional observations from a re-analysis of the deposited data

Results flagged for a closer look

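WT-labelled replicate 4 lay far above the other 4 WT-labelled libraries for Prdx3 (550.1 normalised CPM), Prdx5 (743) and Gpx1 (1140.2), by Dixon's test of the gap to the nearest library at the 95% level. These flags depend on scaling, as the factor of 0.40 raises replicate 4, and unscaled CPM was not tested. On unscaled CPM, replicate 4 and the next WT-labelled library had 218 and 107 for Prdx3. They had 294 and 106 for Prdx5, and 452 and 218 for Gpx1. The log2 ratio of Prdx1 to Prdx2 counts was far lower in WT-labelled replicate 2, at 1.43, than in the other 4 WT-labelled libraries, at 2.71 to 2.85, and KO-labelled replicates 2 and 3 had 1.85 and 2.11. The groups overlapped in that ratio (KO minus WT -0.27, exact two-sided permutation p = 0.464). Of 13 sets of WT-labelled values examined, 4 passed this test. Its chance rate of about 1 in 20 assumes normally distributed values. The gene levels were tested as normalised CPM without taking logs, and they were skewed. The count of 4 therefore cannot be compared with that rate.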

How the results depend on the processing

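Prdx1, Prdx2, Prdx6, Txn1, Gpx1 and Gpx4 kept negative and Gclm positive log2 changes in all 19 alternatives. DESeq2 took Prdx1 (-3.34), Prdx2 (-2.90), Prdx6 (-3.73) and Gpx1 (-3.12) past the threshold, and called 4 of the 10 genes, 14 of the wider redox list and 2421 of all genes; limma-voom called 22 of all genes. TMM factors of 1, no filter and a mean of at least 5 CPM each called 1 gene, which was none of the 10. The sign of Prdx3 turned with limma-voom (2.23) and without WT-labelled replicates 4 and 5 (3.28), and that of Prdx5 likewise (1.08 and 1.16). Txnrd1 turned with DESeq2 size factors in edgeR (-0.042), DESeq2 (-0.043), no filter (-0.16) and without WT-labelled replicates 4 and 5 (-0.36); leaving out 1 library at a time it ran from -0.28 to 0.70. The cause was not tested. Scaling moved the median of all genes, from -0.42 with TMM to 0.21 with factors of 1 and -0.72 with DESeq2 size factors. With factors of 1 Prdx1 had -1.40.

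Replicates 1 to 3 share numbers between groups, but same-numbered libraries did not deviate together (correlations of 0.02, 0.02 and 0.05), so the numbers were not taken as pairs. With a replicate block 0 genes were called, Prdx3 had 5.45 and Prdx5 1.71. Prdx3 and Txnrd1 had 0 to 11 counts in some libraries. Txnrd1 had 1 count in WT-labelled replicate 4, the deepest library (17.98 M), and 220 in KO-labelled replicate 2 (4.57 M). The cause of these low counts was not tested.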

Other observations

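Relatives of the 10 genes, looked at after their values were seen, were also uneven between libraries. Prdx4, the peroxiredoxin of the endoplasmic reticulum, had 4, 0, 170, 0 and 3527 counts in WT-labelled replicates 1 to 5 and 370, 8 and 2 in KO-labelled replicates 1 to 3. Mitochondrial Txn2 had 691, 6, 763, 5000 and 1052 counts in WT-labelled replicates 1 to 5, against 318, 194 and 72 in the KO-labelled libraries. Txnrd2, its reductase, had 173, 1, 398, 8 and 4 against 11, 40 and 0. The 2 libraries with the most Txn2 counts, WT-labelled replicates 4 and 5, thus held 8 and 4 counts of Txnrd2. The processed pseudogenes Prdx1-ps, Prdx2-ps2, Prdx6-ps2 and Gpx4-ps1 had 0 counts in all 8 libraries, Txn-ps1 at most 1, Gpx4-ps2 at most 52 and Prdx2-ps1 at most 73.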
